A study of Mus musculus with 28 samples.

Results

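The 10 genes described here carry the peroxisome proliferator-activated receptor (PPAR) and liver X receptor (LXR) arm of hepatic lipid metabolism. They were chosen by name and not by a threshold on a measured value, with earlier results of these data known: the receptors Ppara, Pparg, Ppard and Nr1h3, their shared partner Rxra, the coactivators Ppargc1a and Ppargc1b, and the lipid-uptake genes Cd36, Fabp1 and Fabp4. All 10 were found among the 36072 gene symbols of the count files, and all 10 passed the filter on low counts that left 9684 genes to test. Liver RNA came from 7 Mif-2-/-Apoe-/- and 7 Apoe-/- mice, with 2 prime-seq libraries per mouse that were summed. Prime-seq is a bulk RNA-seq method that reads and counts tagged 3' ends of transcripts. Both genotypes were female, on a C57BL/6 background and lacked apolipoprotein E, and both ate a cholesterol-rich Western-type high-fat diet (HFD) for 12 weeks from the age of 8 weeks. The double knockouts in addition carried a global deletion of Mif-2 (also named Ddt), so that every cell type of the liver lacked the cytokine MIF-2. The comparison asks how the loss of MIF-2 bears on hepatic lipid gene programmes in hyperlipidemic mice.

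PPARs and LXRs are nuclear receptors: a lipid ligand binds the receptor, which sits on DNA as a heterodimer with the retinoid X receptor RXR and exchanges corepressors for coactivators. PPARα is the fasting and fatty acid oxidation receptor of hepatocytes, PPARγ drives lipid storage and is induced in fatty liver, PPARδ is widely expressed, and LXRα senses oxysterols and turns on cholesterol efflux and lipogenesis. The PPAR-RXR dimer binds direct repeats of the half-site AGGTCA that are 1 base apart, and the LXR-RXR dimer binds repeats that are 4 bases apart. CD36 imports long-chain fatty acids, and the fatty acid-binding proteins carry them through the cytosol.

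Ddt, read first as the check of the genotype, averaged 4.92 ± 2.23 CPM (counts scaled to a common library size) in Mif-2-/-Apoe-/- livers and 105 ± 23.2 CPM in Apoe-/- livers (SD, n = 7 each), a log2 fold change of -4.50 (SE 0.23) with an edgeR adjusted p of 3.12e-11. Which part of the gene is deleted is not stated in the labels. Total counts were 1336787 to 2715022 per mouse. The 6 hepatocyte markers, led by Alb, summed to 37850 ± 8535 CPM in Mif-2-/-Apoe-/- livers and 36180 ± 6192 CPM in Apoe-/- livers (two-sided exact permutation p = 0.676). A single liver, that of Mif-2-/-Apoe-/- mouse 3, stood apart by its skeletal muscle and adipocyte transcripts, and values without it are given beside the results that it moved. In bulk liver, fewer cells of a type and less RNA per cell cannot be told apart.

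The proximal promoters of the uptake genes Fabp1 and Cd36 and of the 2 receptors with the smallest p are shown because PPARs and LXRs act through motifs in such sequence. Windows at RefSeq (GRCm38.p6) start sites were read for 8 of the 10 genes, all but Fabp4 and Ppargc1b. The chromosome of Ppargc1b was left out of this search. The bases directly before the start are printed 5′ to 3′ on the strand of the gene, and capitals mark a half-site (AGGTCA on either strand) or a loose direct repeat 1 (AGGNCANAGGNCA on either strand), which overlaps a half-site in Fabp1.
Fabp1, chr6:71199629-71199878, plus strand: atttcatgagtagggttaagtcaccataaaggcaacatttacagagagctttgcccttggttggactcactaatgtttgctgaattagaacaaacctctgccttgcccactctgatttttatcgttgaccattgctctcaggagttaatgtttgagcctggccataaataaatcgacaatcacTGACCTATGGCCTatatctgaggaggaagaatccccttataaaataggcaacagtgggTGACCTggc
Cd36, chr5:17835897-17836146, minus strand: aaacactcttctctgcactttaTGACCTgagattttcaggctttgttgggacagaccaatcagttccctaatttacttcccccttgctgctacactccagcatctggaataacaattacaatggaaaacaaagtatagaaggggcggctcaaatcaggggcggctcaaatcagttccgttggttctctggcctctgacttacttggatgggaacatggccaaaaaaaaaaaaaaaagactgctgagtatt
Pparg, most upstream of 3 annotated starts, chr6:115360894-115361143, plus strand: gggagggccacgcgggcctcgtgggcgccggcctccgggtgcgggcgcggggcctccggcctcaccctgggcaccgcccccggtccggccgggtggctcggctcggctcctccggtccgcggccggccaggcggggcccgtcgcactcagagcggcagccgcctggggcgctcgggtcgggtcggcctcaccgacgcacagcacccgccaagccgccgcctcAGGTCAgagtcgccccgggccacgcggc
Ppara, chr15:85735526-85735775, plus strand: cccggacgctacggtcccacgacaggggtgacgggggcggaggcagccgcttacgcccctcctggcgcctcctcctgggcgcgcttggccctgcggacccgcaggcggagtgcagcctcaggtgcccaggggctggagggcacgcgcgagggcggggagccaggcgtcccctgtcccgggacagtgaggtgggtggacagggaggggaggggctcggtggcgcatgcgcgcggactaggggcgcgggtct

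In Fabp1 the direct repeat 1 read TGACCTATGGCCT on the printed strand, 67 to 55 bases before the start, and a separate half-site lay 9 to 4 bases before it. The loose direct repeat 1 was present in 125 of 32851 RefSeq promoters of 300 bases (0.381%), and Fabp1 was the only one of the 8 genes that held it. The half-site alone was common (16.3% of promoters). Cd36 held 1, 228 to 223 bases before its start, and Pparg held 1 before each of its 2 upstream starts, 28 to 23 and 9 to 4 bases away, and none before the third. Rxra held 2 before its second start, and the windows of Ppara, Ppard, Nr1h3 and Ppargc1a held none. No direct repeat 4 (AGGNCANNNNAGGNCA, 0.253% of promoters) was found in the 8 genes. These are matches of letters and not measured binding.

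Of the 10 genes, 0 passed an adjusted p of 0.05 in edgeR's quasi-likelihood test, against 21 of 9684 genes tested (0.217%). At an unadjusted p below 0.05 there were 3, Pparg, Ppara and Cd36, against 12.9% of all genes tested. All 3 had lower values in Mif-2-/-Apoe-/- livers, where the share of all genes was 5.49%. Over the 10 genes, 5 log2 fold changes were negative and 5 positive, with a median of -0.10, beside 0.01 for all genes tested, of which 48.5% were negative. The groups overlapped for every one of the 10, whereas 27 genes (0.279%) had no overlap. DESeq2 and limma-voom also called 0 of the 10.

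**Figure D1:**
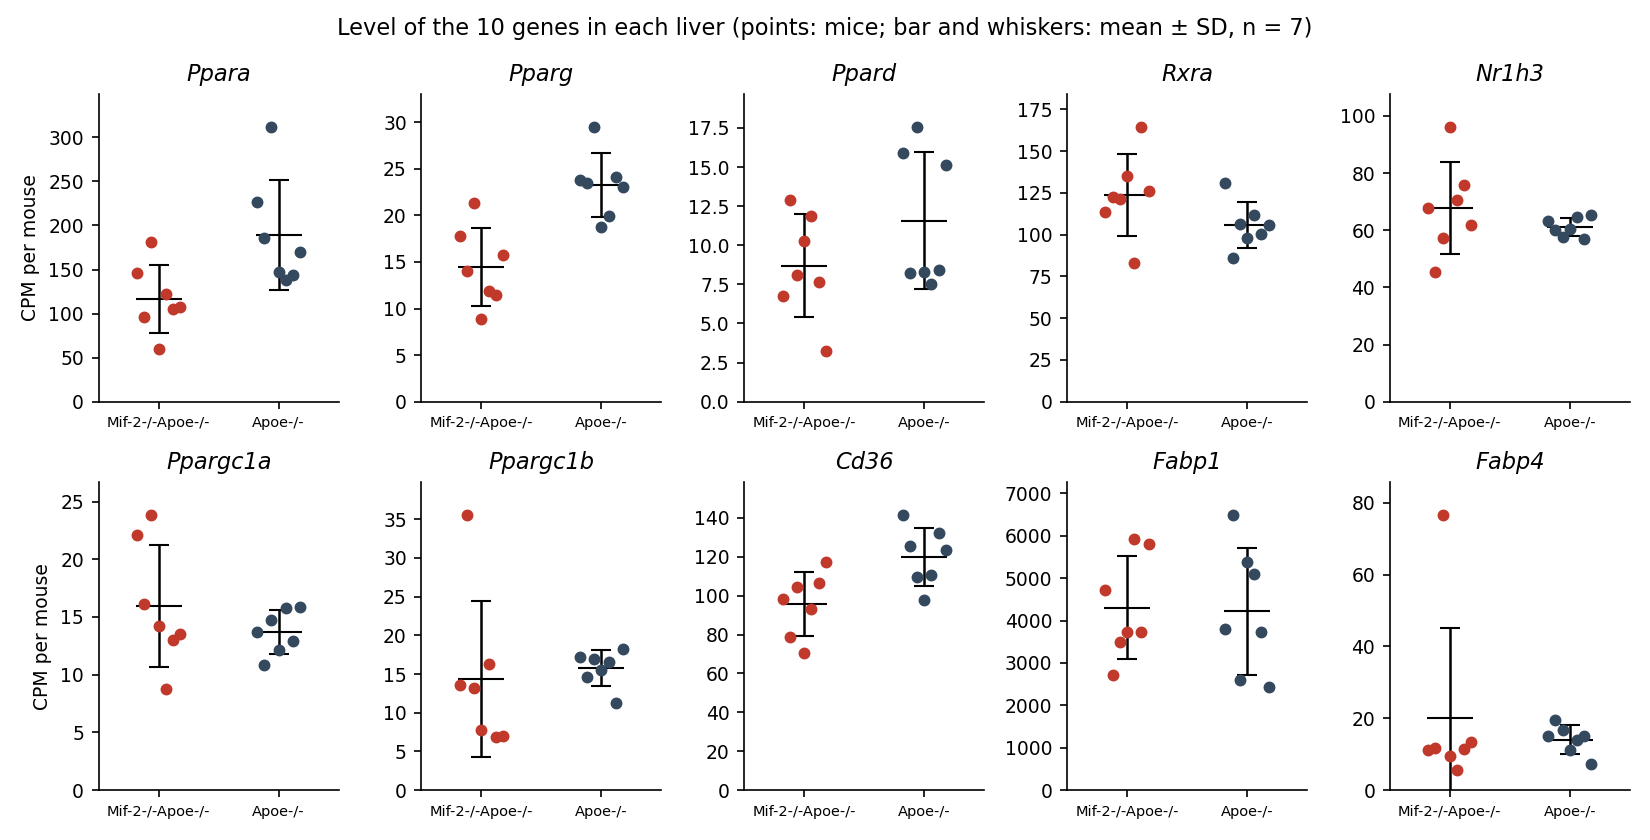
CPM of each gene in each liver, with Mif-2-/-Apoe-/- mice (red) on the left of each panel and Apoe-/- mice (dark blue) on the right; points are mice, and the bar and whiskers are the mean ± SD (n = 7). Pparg reached at most 21.3 CPM in Mif-2-/-Apoe-/- livers and at least 18.8 CPM in Apoe-/- livers, and 1 Mif-2-/-Apoe-/- liver stood far above all others in Fabp4 (76.6 CPM).

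Ppara and Pparg had the lowest ratios between the genotypes. Ppara (ENSMUSG00000022383.13, mm10 chr15:85734983-85802819, plus strand) encodes the receptor that switches on hepatic fatty acid oxidation. Its level was 60.0 to 182 CPM in Mif-2-/-Apoe-/- livers with a median of 108 CPM, and 139 to 312 CPM in Apoe-/- livers with a median of 169 CPM. Of the Mif-2-/-Apoe-/- mice, 5 lay below every Apoe-/- mouse and the other 2, with 146 and 182 CPM, lay within the Apoe-/- range. The group means were 117 ± 38.7 CPM in Mif-2-/-Apoe-/- mice and 189 ± 62.4 CPM in Apoe-/- mice. This gave 0.62 times the Apoe-/- level (log2 fold change -0.69, SE 0.22, 95% interval -1.14 to -0.24), with an edgeR p of 0.00439 and an adjusted p of 0.188.

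Pparg (ENSMUSG00000000440.12, chr6:115360951-115490399, plus strand) encodes the lipid-storage receptor and was read at a much lower depth, 13 to 42 counts per Mif-2-/-Apoe-/- mouse and 29 to 63 counts per Apoe-/- mouse. It spanned 8.88 to 21.3 CPM in Mif-2-/-Apoe-/- livers (median 14.0 CPM) and 18.8 to 29.5 CPM in Apoe-/- livers (median 23.5 CPM). Only Mif-2-/-Apoe-/- mouse 3, the highest of its group, entered the Apoe-/- range, and 6 mice lay below every Apoe-/- mouse. The log2 fold change was -0.68 (SE 0.19, 95% interval -1.07 to -0.30), or 0.62 times the Apoe-/- level, with an edgeR p of 0.00132 and an adjusted p of 0.143. Of all genes tested, 0.878% had a p as small or smaller. Counts at the 3' end do not tell the transcripts from its 3 annotated starts apart.

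Both receptors missed the threshold in each alternative (adjusted p of 0.0563 to 0.559 for Ppara and 0.0660 to 0.390 for Pparg) and with each mouse left out in turn. Leaving out a mouse gave adjusted p of 0.0923 to 0.382 for Ppara and 0.0524 to 0.270 for Pparg in edgeR, the lowest of each without Mif-2-/-Apoe-/- mouse 3, where the log2 fold changes were -0.83 and -0.82. With the nuclear RNA Malat1 as a covariate, chosen after the data had been seen, the log2 fold change of Ppara was -0.45 (SE 0.20, edgeR p = 0.0343, adjusted p = 0.559) and that of Pparg -0.55 (SE 0.18, edgeR p = 0.00639, adjusted p = 0.366). Malat1 itself averaged 2543 ± 1456 CPM in Mif-2-/-Apoe-/- livers and 3338 ± 1499 CPM in Apoe-/- livers (exact permutation p = 0.343).

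Ppara and Pparg also varied together from mouse to mouse. After each group was centred on its own mean, their log2 CPM correlated over the 14 mice with Pearson's r = 0.84 (permutation within groups, p = 0.00035, adjusted p = 0.0158 over 45 pairs of the 10 genes) and Spearman's rho = 0.71 (p = 0.00688, adjusted p = 0.111). Of the 45 pairs, this was the only one to pass by r, and 0 passed by rho. Within genotypes r was 0.88 in the 7 Mif-2-/-Apoe-/- mice and 0.82 in the 7 Apoe-/- mice. Without the most extreme mice, Mif-2-/-Apoe-/- mouse 4 (60.0 CPM Ppara, 8.88 CPM Pparg) and Apoe-/- mouse 3 (312 and 29.5 CPM), r was 0.74. Those same mice were also far apart in Malat1, with 1427 CPM in Mif-2-/-Apoe-/- mouse 4 and 6374 CPM in Apoe-/- mouse 3. Other mice did not follow this order: Mif-2-/-Apoe-/- mouse 2 had 5323 CPM Malat1 and 95.8 CPM Ppara, and mouse 7 of that group 1005 and 108 CPM. Against Malat1 over the 14 mice, r was 0.57 for Ppara (permutation p = 0.0462, adjusted p = 0.267 over 50 relations) and 0.46 for Pparg (p = 0.151, adjusted p = 0.471). Within the Mif-2-/-Apoe-/- mice r with Malat1 was 0.36 for Ppara and 0.34 for Pparg, and within the Apoe-/- mice 0.93 and 0.81. The sum of 11 Kupffer cell and macrophage markers, highest in Mif-2-/-Apoe-/- mouse 4 (1603 CPM), gave r = -0.57 for Ppara (permutation p = 0.0481, adjusted p = 0.267; rho -0.39) and -0.71 for Pparg (p = 0.0256, adjusted p = 0.213; rho -0.49), and -0.38 and -0.47 without Mif-2-/-Apoe-/- mice 4 and 6. The part of Malat1 or of the macrophage markers in the shared variation was not tested.

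**Figure D2:**
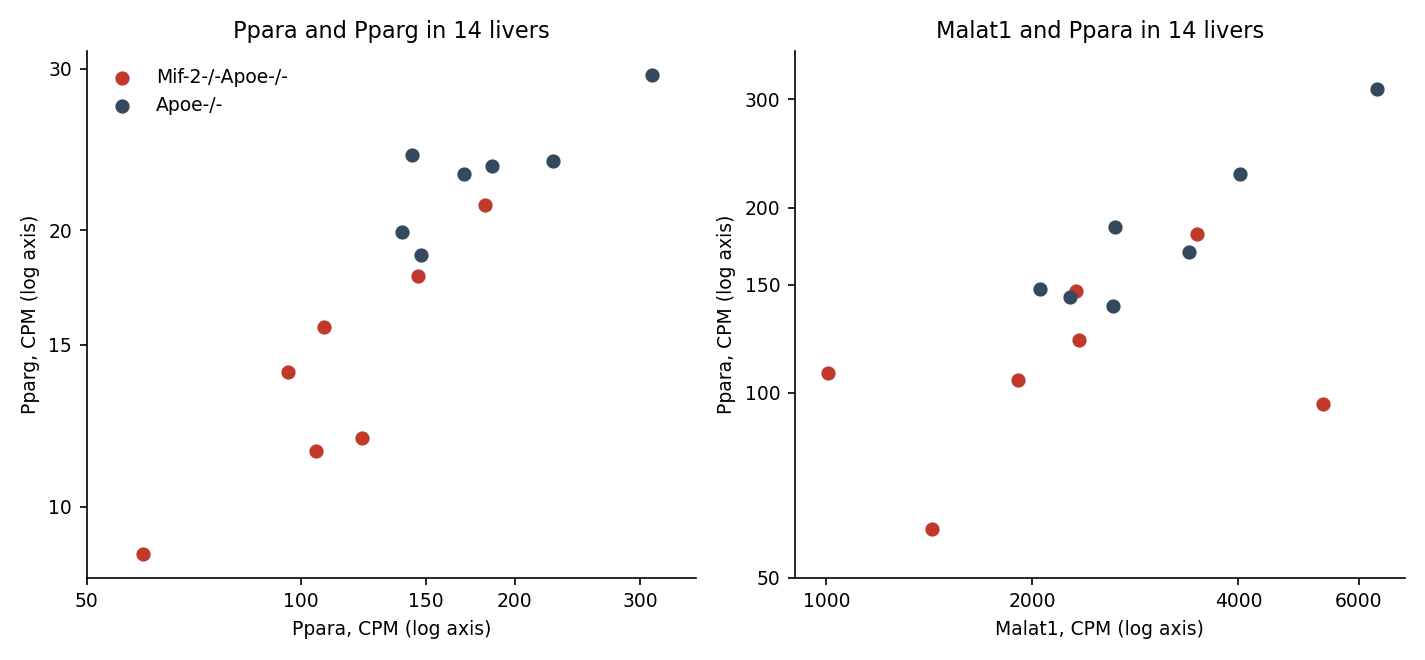
Left, Pparg against Ppara, and right, Ppara against Malat1, in CPM on log axes; each point is 1 liver, Mif-2-/-Apoe-/- in red and Apoe-/- in dark blue. The lowest liver in both receptors is Mif-2-/-Apoe-/- mouse 4 (60.0 and 8.88 CPM) and the highest is Apoe-/- mouse 3 (312 and 29.5 CPM).

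Among 4445 genes with a mean of at least 20 CPM, the gene most like Ppara in this centred pattern was Ppp3ca, a catalytic subunit of calcineurin (r = 0.85 over 14 mice), followed by Spag9 (0.81) and Erbb4 (0.79). Ppp3ca was also the gene most like Pparg (r = 0.86), followed by Ppara itself (0.84) and Ptpn12 (0.83). The log2 fold change of Ppp3ca between the genotypes was -0.15 (edgeR adjusted p = 0.650).

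Ppard, the widely expressed PPAR, and the retinoid partner and LXRα gave smaller differences. Ppard (ENSMUSG00000002250.16, chr17:28232700-28301474, plus strand) was the least abundant of the receptors in counts, with 6 to 29 counts per Mif-2-/-Apoe-/- mouse and 15 to 36 per Apoe-/- mouse. It spanned 3.25 to 12.9 CPM in Mif-2-/-Apoe-/- livers (median 8.11 CPM) and 7.51 to 17.6 CPM in Apoe-/- livers (median 8.43 CPM). The Apoe-/- group was divided, with 3 mice at 15.1 to 17.6 CPM and 4 at 7.51 to 8.43 CPM, and 5 Mif-2-/-Apoe-/- mice fell within its range. Its log2 fold change was -0.40 (95% interval -0.97 to 0.17, edgeR adjusted p = 0.536). With each mouse left out in turn it was -0.49 to -0.24, the latter without Mif-2-/-Apoe-/- mouse 7. The 3 high Apoe-/- mice were also the 3 with the most Malat1 in that group (3387 to 6374 CPM), and over the 14 mice r between Ppard and Malat1 was 0.75 (permutation p = 0.00312, adjusted p = 0.078 over 50 relations; rho 0.79, adjusted p = 0.0735; 0.65 without Mif-2-/-Apoe-/- mouse 2 and Apoe-/- mouse 3). With Malat1 as a covariate the log2 fold change of Ppard was -0.07 (edgeR adjusted p = 0.959).

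Rxra (ENSMUSG00000015846.14, chr2:27676440-27762957, plus strand), the obligate partner of PPARs and LXRs, spanned 83.1 to 165 CPM in Mif-2-/-Apoe-/- livers (median 123 CPM) and 86.2 to 131 CPM in Apoe-/- livers (median 106 CPM). In 6 of 7 Mif-2-/-Apoe-/- mice it lay above the Apoe-/- mean, and 4 lay within the Apoe-/- range. This gave a log2 fold change of 0.23 (95% interval -0.08 to 0.53, edgeR adjusted p = 0.501). With each mouse left out in turn it was 0.15 (without Mif-2-/-Apoe-/- mouse 6) to 0.31 (without mouse 5 of that group, edgeR adjusted p = 0.310).

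Nr1h3 (ENSMUSG00000002108.10, chr2:91184061-91202834, minus strand), which encodes LXRα, had a narrower range in Apoe-/- livers than in Mif-2-/-Apoe-/- livers. It spanned 45.2 to 96.3 CPM in Mif-2-/-Apoe-/- mice (median 67.6 CPM) and 56.8 to 65.2 CPM in Apoe-/- mice (median 60.3 CPM). The coefficient of variation was 23.6% against 5.38%. Apoe-/- mice had only 82 to 172 counts each, and counting error was not separated from this spread. The difference in spread was not tested. It was also not particular to Nr1h3, with 29.2% against 14.9% for Pparg and 19.7% against 13.1% for Rxra. Ppara and Ppard were nearly equal, and Fabp1 went the other way (28.3% against 35.6%). Between the groups the log2 fold change of Nr1h3 was 0.16 (95% interval -0.14 to 0.46, edgeR adjusted p = 0.638). With each mouse left out in turn it was 0.06 to 0.23, the lowest without Mif-2-/-Apoe-/- mouse 4. That mouse had both the highest Nr1h3 and the highest sum of 11 Kupffer cell and macrophage markers, 1603 CPM. The marker sum spanned 712 to 1603 CPM in Mif-2-/-Apoe-/- livers and 828 to 1091 CPM in Apoe-/- livers (exact permutation p = 0.301, and 0.583 with totals in place of TMM scaling). Of its 11 genes, only Timd4 passed the test (log2 fold change 1.30, edgeR adjusted p = 0.0373). Over 14 mice the marker sum and Nr1h3 correlated with r = 0.79 (permutation p = 0.0141, adjusted p = 0.141 over 50 relations; rho 0.72, adjusted p = 0.173) and with r = 0.60 without Mif-2-/-Apoe-/- mice 4 and 6. The genes most like Nr1h3 were Cd47 (r = 0.93, rho 0.72), Vkorc1 (r = 0.93, rho 0.84) and the macrophage complement gene C1qc (r = 0.89, rho 0.56). C1qc is itself 1 of the 11 markers in the sum. LXRα is made in hepatocytes and in Kupffer cells, and the part of the macrophage content in its level was not tested.

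**Figure D3:**
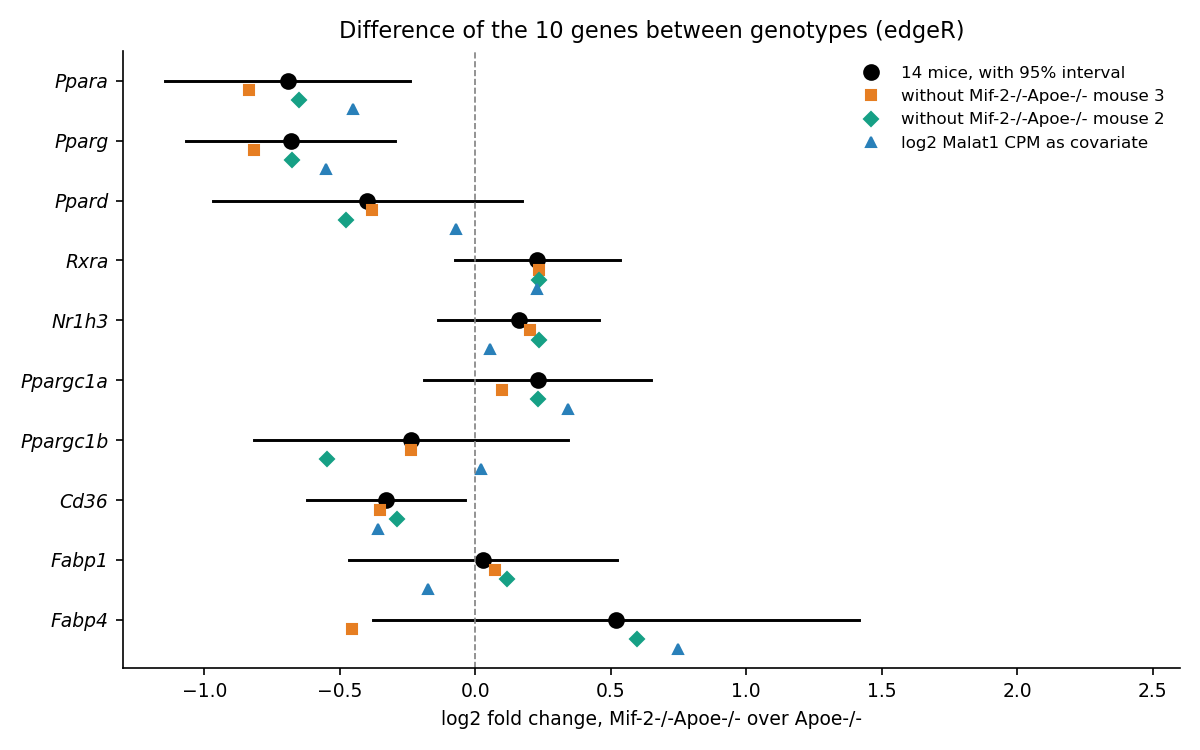
Log2 fold change of the 10 genes, Mif-2-/-Apoe-/- over Apoe-/-, from edgeR with 14 mice (black circles, lines are 95% intervals) and in 3 alternatives: without Mif-2-/-Apoe-/- mouse 3 (squares), without Mif-2-/-Apoe-/- mouse 2 (diamonds) and with log2 Malat1 CPM as covariate (triangles). The intervals of Ppara, Pparg and Cd36 lie below 0, and Fabp4 moves from the positive side (0.52) to -0.45 without mouse 3.

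The PGC-1 coactivators, which join PPARs to the transcription of mitochondrial and oxidative genes, did not pass the test. Ppargc1a (ENSMUSG00000029167.13, chr5:51454250-51567726, minus strand), the fasting-induced member, spanned 8.74 to 23.8 CPM in Mif-2-/-Apoe-/- livers (median 14.2 CPM) and 10.8 to 15.9 CPM in Apoe-/- livers (median 13.7 CPM). In this group 3 mice lay above every Apoe-/- mouse, at 16.2 to 23.8 CPM, and 1 below all of them. With all mice the log2 fold change was 0.23 (95% interval -0.19 to 0.65, edgeR adjusted p = 0.630). It was 0.10 without Mif-2-/-Apoe-/- mouse 3, 0.14 without mouse 1 and 0.34 without mouse 5 of the same group.

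Ppargc1b (ENSMUSG00000033871.14, chr18:61298136-61400431, minus strand), the relative that also coactivates SREBP-1 in lipogenesis, spanned 6.89 to 35.5 CPM in Mif-2-/-Apoe-/- livers (median 13.2 CPM) and 11.2 to 18.3 CPM in Apoe-/- livers (median 16.5 CPM). A single mouse, Mif-2-/-Apoe-/- mouse 2, lay above the Apoe-/- range and 3 lay below it, at 6.89 to 7.82 CPM. Its log2 fold change was -0.24 (95% interval -0.82 to 0.34, edgeR adjusted p = 0.738) and, without mouse 2, -0.55 (edgeR p = 0.0188, adjusted p = 0.170). Without Mif-2-/-Apoe-/- mouse 4, 6 or 7 it was -0.11, -0.13 and -0.11. Mouse 2 was the shallowest of the 14 (1336787 counts), with the lowest TMM scaling factor (0.709) and the highest mitochondrial share of counts (21.45%), and held 5323 CPM Malat1 and 307 CPM Xist, the highest Xist level of the 14. The gene most like Ppargc1b over the 14 mice was Xist, a nuclear RNA of female cells (r = 0.92), and r with Malat1 was 0.77 (permutation p = 0.0024, adjusted p = 0.078 over 50 relations; rho 0.76, adjusted p = 0.0968; 0.70 without Mif-2-/-Apoe-/- mouse 2 and Apoe-/- mouse 3). With Malat1 as a covariate the log2 fold change was 0.02 (edgeR adjusted p = 0.992).

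Of the uptake genes, Cd36 had lower values in Mif-2-/-Apoe-/- livers, and Fabp1, whose promoter window carries the direct repeat shown above, had nearly equal means. Cd36 (ENSMUSG00000002944.15, chr5:17781690-17888801, minus strand), the fatty acid translocase and a target of both PPARγ and LXR, spanned 70.3 to 118 CPM in Mif-2-/-Apoe-/- livers (median 98.4 CPM) and 97.9 to 142 CPM in Apoe-/- livers (median 123 CPM). All 7 Mif-2-/-Apoe-/- mice lay below the Apoe-/- mean, 3 of them below every Apoe-/- mouse and 4 within the Apoe-/- range. The log2 fold change was -0.33 (SE 0.14, 95% interval -0.62 to -0.04), or 0.796 times the Apoe-/- level, with an edgeR p of 0.0284 and an adjusted p of 0.320. With each mouse left out in turn the log2 fold change was -0.38 to -0.25. Macrophages and endothelial cells also make Cd36. The 4 lipid-associated macrophage markers (Trem2, Gpnmb, Spp1 and Cd9) summed to 93.7 to 145 CPM in Mif-2-/-Apoe-/- livers (median 122.5 CPM) and 107 to 315 CPM in Apoe-/- livers (median 151.6 CPM). The exact permutation p was 0.0437, and 0.0519 with totals in place of TMM scaling, with 0 of 4 called. The highest sum was that of Apoe-/- mouse 2 alone, and the next was 193.5 CPM in Apoe-/- mouse 1. The 10 endothelial markers summed to 233 ± 26.3 CPM in Mif-2-/-Apoe-/- livers and 206 ± 16.6 CPM in Apoe-/- livers (exact permutation p = 0.046, and 0.573 with totals), with 0 of 10 called. Their part in the Cd36 level was not tested.

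Fabp1 (ENSMUSG00000054422.7, chr6:71199827-71205023, plus strand), the liver fatty acid-binding protein and a classical PPARα target, was the most counted of the 10, with 2531 to 17396 counts per mouse. It spanned 2725 to 5934 CPM in Mif-2-/-Apoe-/- livers (median 3741 CPM) and 2424 to 6491 CPM in Apoe-/- livers (median 3811 CPM). All 7 Mif-2-/-Apoe-/- mice lay within the Apoe-/- range. Its log2 fold change was 0.03, and its 95% interval of -0.46 to 0.52 (edgeR adjusted p = 0.970) covers ratios of 0.725 to 1.44. This interval overlaps that of Ppara (-1.14 to -0.24), and the difference between the genes was not tested. The sign was not settled: leaving out mouse 5 or 7 of the Mif-2-/-Apoe-/- group, or mouse 3 or 7 of the Apoe-/- group, gave -0.07 to -0.05, and Malat1 as a covariate gave -0.17. Fabp1 did not follow Ppara across mice (r = -0.16 over 14 mice, permutation p = 0.591). Its closest genes were Rnh1 (r = 0.91), the hepatocyte secretory gene Ttr (0.90) and Wdr61 (0.90).

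Fabp4 (ENSMUSG00000062515.3, chr3:10204088-10208576, minus strand), the adipocyte and macrophage fatty acid-binding protein, turned on 1 liver. Mif-2-/-Apoe-/- mouse 3 had 76.6 CPM, with 68 and 83 counts in its libraries, the other 6 Mif-2-/-Apoe-/- mice had 5.62 to 13.5 CPM, and the Apoe-/- mice had 7.16 to 19.4 CPM. The log2 fold change was 0.52 (SE 0.43, 95% interval -0.38 to 1.42, edgeR adjusted p = 0.606) with all mice and -0.45 without mouse 3 (edgeR p = 0.0602, adjusted p = 0.354). Of the 7 Mif-2-/-Apoe-/- mice, 6 lay below the Apoe-/- mean. In mouse 3 the 5 skeletal muscle markers summed to 4762 CPM, against 10.7 to 35.5 CPM in the other 13 mice, and the 6 adipocyte markers to 67.9 CPM, against 1.07 to 16.2 CPM. Of the adipocyte markers in that liver, Cfd had 110 counts, Retn 12, Adipoq 9 and Plin1 0. Fabp3, the muscle and heart member of the family, had 268 CPM in mouse 3 and at most 3.76 CPM elsewhere. The genes most like Fabp4 over the 14 mice, Slc25a4 (r = 0.91), Pkm (0.90) and Cryab (0.89), were at 0.51, 0.49 and 0.28 without mouse 3. The part of the other tissues in its Fabp4 count was not tested.

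**Figure D4:**
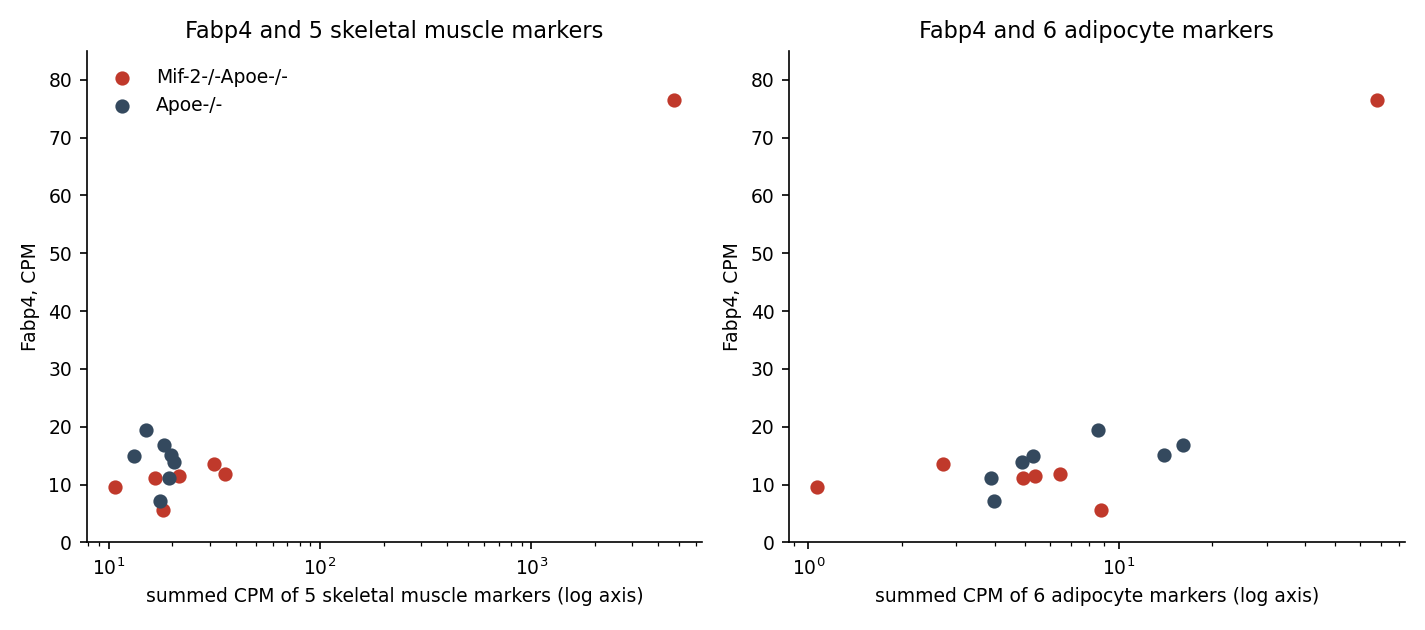
Fabp4 in CPM against the summed CPM of 5 skeletal muscle markers (left) and of 6 adipocyte markers (right), on log x axes; each point is 1 liver, Mif-2-/-Apoe-/- in red and Apoe-/- in dark blue. Mif-2-/-Apoe-/- mouse 3 stands alone in both panels, with 76.6 CPM Fabp4, 4762 CPM muscle and 67.9 CPM adipocyte markers.

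The genes around these receptors were read from lists of known partners and targets. In none of the lists did a gene pass the adjusted threshold in edgeR with all mice, so the counts that follow are at an unadjusted p below 0.05, a level that 12.9% of all genes tested reached. The 9 tested RXR partner receptors, among them the bile acid receptor Nr1h4 (log2 fold change -0.30) and the xenobiotic receptor Nr1i3 (-0.28), had 0 genes at this level and a median log2 fold change of -0.12. The 13 coregulators had 1, Lpin1, a PGC-1α partner and phosphatidate phosphatase (log2 fold change 0.61, edgeR adjusted p = 0.316), and a median of -0.04.

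The PPARα targets lay on both sides of 0. Of 31 tested, 1 was higher and 2 lower at this level, with a median log2 fold change of 0.02 beside 0.01 for all genes. Ech1, an enzyme of unsaturated fatty acid oxidation, averaged 273 ± 55.0 CPM in Mif-2-/-Apoe-/- livers and 152 ± 50.4 CPM in Apoe-/- livers (log2 fold change 0.84, SE 0.18, edgeR adjusted p = 0.0537), and all 7 Mif-2-/-Apoe-/- mice lay above the Apoe-/- mean. Pex11a, a peroxisome division factor, averaged 48.3 ± 9.71 CPM in Mif-2-/-Apoe-/- livers and 76.8 ± 27.2 CPM in Apoe-/- livers (log2 fold change -0.69, SE 0.20, edgeR adjusted p = 0.144). Cyp4a10, a fatty acid omega-hydroxylase, averaged 290 ± 96.7 CPM in Mif-2-/-Apoe-/- livers and 470 ± 146 CPM in Apoe-/- livers (log2 fold change -0.70, SE 0.23, edgeR adjusted p = 0.201). Both lay below the Apoe-/- mean in all 7 Mif-2-/-Apoe-/- mice.

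The list of PPARγ targets was chosen with earlier results of these data known, and 10 of its 18 genes were tested. Their median log2 fold change was -0.29 beside 0.01 for all genes tested. At an unadjusted p below 0.05, 4 were lower in Mif-2-/-Apoe-/- livers and 0 higher, where 5.49% of all genes tested were lower. Among these 4 were the lipid droplet protein Hsd17b13 (log2 fold change -0.64, SE 0.16, edgeR adjusted p = 0.108), the lipase inhibitor G0s2 (-0.69, SE 0.20, adjusted p = 0.146) and the glycerol-3-phosphate enzyme Gpd1 (-0.36, adjusted p = 0.330). The study had already named Hsd17b13 as lower in its RNA-seq of liver lysates. Hsd17b13 averaged 76.5 ± 12.3 CPM in Mif-2-/-Apoe-/- livers and 119 ± 25.1 CPM in Apoe-/- livers, and G0s2 36.5 ± 12.4 CPM in Mif-2-/-Apoe-/- livers and 59.7 ± 13.1 CPM in Apoe-/- livers. Hsd17b13, G0s2 and Gpd1 lay below the Apoe-/- mean in all 7 Mif-2-/-Apoe-/- mice. Without Mif-2-/-Apoe-/- mouse 3 the count was 5 lower and the median -0.34, where 14.9% of all genes reached this level in either direction. With Malat1 as a covariate it was 3 lower and the median -0.22, with G0s2 called, where 8.56% of all genes did.

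LXR targets gave 2 higher and 1 lower of 17 tested, with a median log2 fold change of 0.05, and 2 higher and 0 lower without Mif-2-/-Apoe-/- mouse 3. Srebf1, the gene of the lipogenic factor SREBP-1, averaged 87.1 ± 30.2 CPM in Mif-2-/-Apoe-/- livers and 49.7 ± 14.5 CPM in Apoe-/- livers (log2 fold change 0.81, SE 0.23, edgeR adjusted p = 0.146). The sterol transporter Abcg8 was at 0.45 (edgeR adjusted p = 0.297) and the phospholipid remodelling enzyme Lpcat3 at -0.27 (0.440) on the same log2 scale. Of 20 tested genes of fatty acid and lipoprotein uptake beside the members, 2 were higher and 0 lower, with a median log2 fold change of 0.15. These were Gpihbp1, the capillary anchor of lipoprotein lipase (log2 fold change 0.48, edgeR adjusted p = 0.221), which was also 1 of the 10 endothelial markers above, and Fabp5 (1.10, adjusted p = 0.227). Fabp5 reached 23.8 and 22.2 CPM in Mif-2-/-Apoe-/- mice 4 and 6, the pair with the most macrophage markers, against 4.33 to 9.69 CPM in the other 5 Mif-2-/-Apoe-/- mice and 3.18 to 8.96 CPM in Apoe-/- mice. The 13 tested PGC-1 partners and targets had 0 genes at this level and a median of 0.17.

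**Figure D5:**
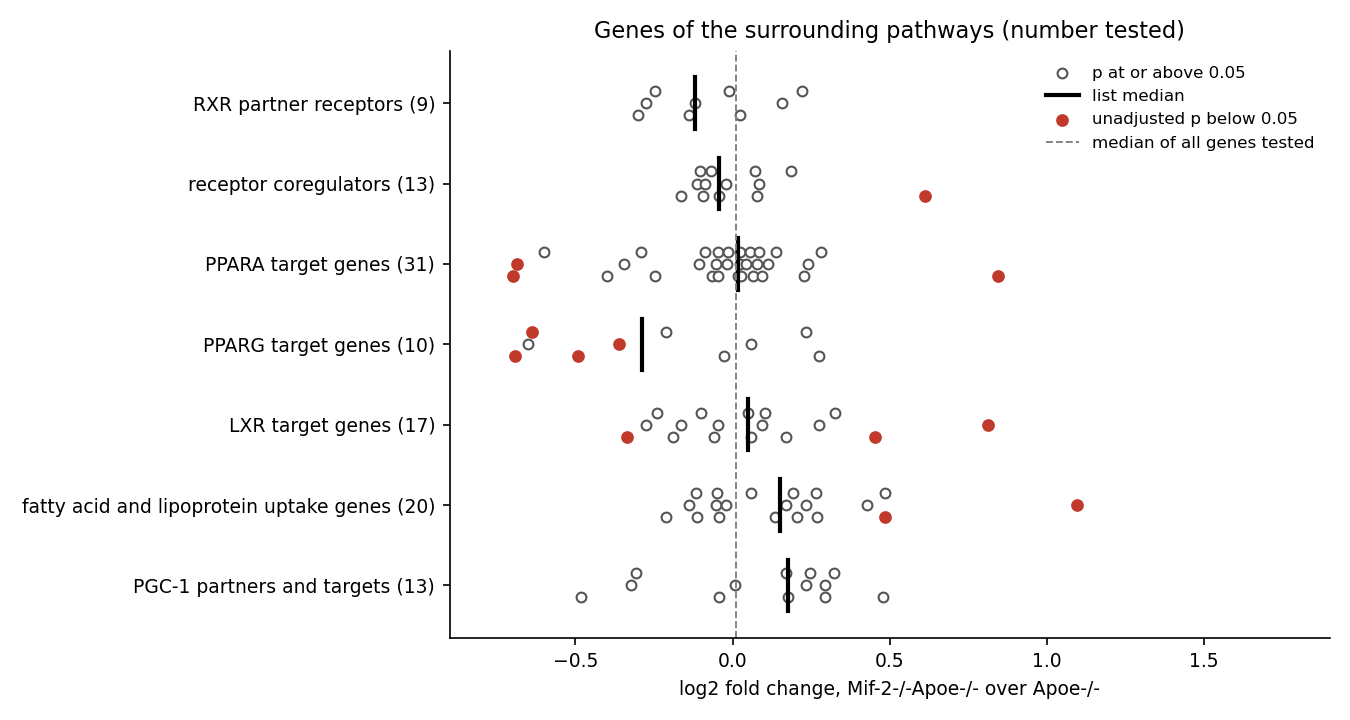
Log2 fold change, Mif-2-/-Apoe-/- over Apoe-/-, of each tested gene (points) of 7 lists, filled at an unadjusted p below 0.05; vertical bars are list medians and the dashed line is the median of all genes tested (0.01). The PPARγ targets have 4 filled points, all negative, and a median of -0.29, while the PPARα targets lie on both sides of 0 with a median of 0.02.

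Clock and early response genes, which vary with the hour and with tissue handling, are given beside the receptors. Of 11 tested clock genes 0 reached an unadjusted p below 0.05, with a median log2 fold change of -0.10. Of 8 tested immediate early and nuclear-retained transcripts 5 were higher in Mif-2-/-Apoe-/- livers and 0 lower, with a median of 0.78. Without Mif-2-/-Apoe-/- mouse 3 there were 4 higher (median 0.62), and with Malat1 as a covariate 6 higher (median 0.82), with Fos called. Malat1 was itself in this list. The fit with the covariate adjusted it for its own level, so its value there was fixed in advance. Fos averaged 16.9 ± 11.3 CPM in Mif-2-/-Apoe-/- livers and 3.75 ± 1.34 CPM in Apoe-/- livers (log2 fold change 2.10, SE 0.45, edgeR adjusted p = 0.0504), and Junb (0.99) and Egr1 (1.33) both had an adjusted p of 0.143. Their part in the receptor levels was not tested.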

How the data were processed

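The authors sequenced 28 prime-seq liver libraries, 2 per mouse, counted them with zUMIs and deposited whole-number counts per gene symbol, with no normalization; the labels name build mm10. Library totals were 541651 to 1531192 counts, and the 2 libraries were summed per mouse. Strand and intron settings are not given in the sources used here. The study's model held RNA integrity, which the labels do not give, so no fit adjusted for it.

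Genes were filtered by filterByExpr, scaled by TMM and tested in edgeR 4.0.16 (R 4.3.3) with the quasi-likelihood F test, two-sided, Benjamini-Hochberg over all 9684 genes. The common biological coefficient of variation was 0.238. CPM use TMM-scaled library sizes. Single measures were compared by exact permutation over all 3432 assignments of mice. Correlations used log2 CPM with a prior count of 2, centred within groups, with 100000 permutations of mice within groups. Alternatives were DESeq2 1.42.0, limma 3.58.1 (voom), library totals, other filters, single libraries, a replicate block and each mouse left out. The fits with a Malat1 covariate were added after the data had been seen. The scripts were tested on simulated data.

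The text names all 10 members, Ddt and the 4 genes with the smallest p of each list where they bear on the account. The 3 genes most like a member are named for Ppara, Pparg, Nr1h3, Fabp1 and Fabp4, and only the closest for Ppargc1b. Those of the other members are not reported here. Fabp3, Fabp5, Xist, Malat1 and single markers were singled out after their values were seen. Some genes of the lists are counted but not reported here by name. Members and lists were chosen with earlier results of these data known. Equal replicate numbers did not pair mice (correlations of deviations -0.43 to 0.15 over 4445 genes, 2 of 7 above 0.1). Positions came from GENCODE M21 (mm10) and promoters from RefSeq (GRCm38.p6), 250 bases before to 50 after each start. CPM of 3' tags do not compare levels between genes per length.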

Additional observations from a re-analysis of the deposited data

Results flagged for a closer look

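Of 20 groups of 7 mice examined, 1 for each gene and genotype, 2 held a mouse whose gap to its nearest neighbour exceeded Dixon's 95% critical value. Chance alone marks about 1 group in 20. Ppargc1b in Mif-2-/-Apoe-/- mouse 2 was 35.5 CPM (gap 0.674 of the range), in the liver with the lowest total count and the most Xist. Fabp4 in Mif-2-/-Apoe-/- mouse 3 was 76.6 CPM (gap 0.888 of the range), in the liver with muscle and adipocyte transcripts.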

How the results depend on the processing

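None of the 10 genes was called under 10 other settings, the 2 added after the data had been seen or the 14 fits without 1 mouse. Ppard failed the filter in the fits of single libraries. With DESeq2 and the study's gene filter, Ppard, Ppargc1a, Ppargc1b and Fabp4 had no adjusted p, so they could not be called there. The number of genes called over all genes tested was 21, and it was 68 with DESeq2, 96 with DESeq2 and the study's gene filter, 344 with no filter on low counts and 11 with the first library alone; without 1 mouse it was 7 (Mif-2-/-Apoe-/- mouse 6) to 118 (Mif-2-/-Apoe-/- mouse 2), with 9 or 8 also without Mif-2-/-Apoe-/- mouse 7 or Apoe-/- mouse 1, 3 or 4. Library totals in place of TMM shifted the median of all genes to -0.10 and turned Fabp1 to -0.089 and the difference in summed hepatocyte markers to -1174 CPM. The log2 fold change of Fabp4 was -0.40 with DESeq2, which can replace single extreme counts, and -0.38 with DESeq2 and the study's gene filter. With the Malat1 covariate Fabp1 was -0.17 and Ppargc1b 0.020, and with that covariate and without Mif-2-/-Apoe-/- mouse 3 they were -0.18 and 0.11, Ppard was 0.057 and Fabp4 -0.47. Without 1 mouse each, Fabp1 ranged over -0.069 to 0.17 and Fabp4 over -0.45 to 0.68. The causes of these shifts were not tested. Under the replicate block Ppara was -0.71 (edgeR adjusted p = 0.137), Pparg -0.71 (0.172), Cd36 -0.34 (0.447) and Fabp4 0.09 (0.940), with 14 genes called, and it changed no call among the 10 genes. Counts of 6 to 63 per mouse for Ppard and Pparg limit what differences could be detected.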
